A study of Mus musculus with 4 samples.

Results

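Pax7 occupancy far from any gene was examined in iPax7 muscle progenitors, the setting in which a factor bound to DNA has no promoter nearby. Gene-desert Pax7 peaks were defined by position alone, as peaks whose summit lay inside no annotated gene of any type and more than 100 kb from the nearest transcription start site (TSS) of any transcript. By this rule 1860 of 20579 deposited Pax7 peaks were in gene deserts, or 9.04% (95% Wilson interval 8.65 to 9.44). The other peaks comprised 4546 between genes at 10 to 100 kb from a TSS, 1624 between genes at up to 10 kb, 8673 in introns, 524 in exons and 3352 within 1 kb of a TSS.

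The cells were mouse embryonic stem cells that carry a Pax7 cDNA under a doxycycline (Dox) responsive promoter, inserted beside Hprt, so that the Pax7 mapped here was a transgene product in 1 engineered line rather than the protein of muscle tissue. They were grown as embryoid bodies in serum, given Dox at 1 µg/ml from day 3, sorted at day 5 as PDGFRα+FLK1- cells, expanded with 10 ng/ml basic FGF and collected at day 9 after 6 days of Dox. Chromatin was precipitated with an antibody to Pax7 in 2 ChIP libraries, and 2 input libraries of the same Dox-treated cells served as background, so no group lacked Dox. The libraries of each kind were merged before peaks were called, which leaves 1 list, no value per replicate and no replicate error. Every interval below therefore covers counting error over peaks only, and a peak list measures no expression, so cell-type markers could not be examined. The list carries no read counts, and the depth behind a single peak is unknown.

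Pax7 is a transcription factor that specifies and maintains skeletal muscle progenitors. It binds DNA through a paired domain and a homeodomain, which recognise different short sequences. Gene deserts are long stretches without genes. Many of them lie beside developmental regulators and are known to hold enhancers that act over long distances.

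To show what gene-desert summits look like, the sequence within 50 bp of the summit of the strongest peak of 6 of the stretches with most gene-desert peaks is given first, on the plus strand of NCBIM37 (mm9), named by the nearest protein-coding gene on either side. Capitals mark matches, on either strand, to any of 8 motifs: the paired-box core GTCACG, the paired-box plus homeobox motif ATTAGTCA, homeodomain dimers (TAAT and ATTA separated by 2 or by 3 bases), the E-box CAGCTG, the Runx motif TGTGGT, the Tead motif GGAATG and the AP-1 motif TGANTCA. ATTAGTCA ends in GTCA, the first 4 letters of the core, so the pair can overlap.
Gm8730 to Cdh5, chr8:106274620-106274720: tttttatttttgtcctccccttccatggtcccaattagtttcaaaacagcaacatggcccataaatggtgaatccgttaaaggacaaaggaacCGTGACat
Gm1840 to Efnb2, chr8:8428965-8429065: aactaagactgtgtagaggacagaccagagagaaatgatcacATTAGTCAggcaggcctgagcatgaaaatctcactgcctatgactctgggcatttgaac
Slc4a3 to Epha4, chr1:75882316-75882416: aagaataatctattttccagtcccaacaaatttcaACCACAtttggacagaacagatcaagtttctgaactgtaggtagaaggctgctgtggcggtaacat
Tmem182 to Gm9915, chr1:41495947-41496047: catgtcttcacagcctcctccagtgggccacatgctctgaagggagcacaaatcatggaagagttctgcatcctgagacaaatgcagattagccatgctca
Agtr1b to Tbl1xr1, chr3:21256110-21256210: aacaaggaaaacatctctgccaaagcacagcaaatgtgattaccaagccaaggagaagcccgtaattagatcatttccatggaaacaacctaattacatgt
Camk1g to Plxna2, chr1:195605951-195606051: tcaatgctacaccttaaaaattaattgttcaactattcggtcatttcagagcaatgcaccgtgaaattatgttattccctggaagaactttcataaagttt
The Cdh5 window held the core on the minus strand, starting 43 bp to the right of the summit. The Efnb2 window held ATTAGTCA on the plus strand from 8 bp to the left of the summit, and the Epha4 window held the Runx letters on the minus strand. The Tmem182, Tbl1xr1 and Plxna2 windows held none of the 8 motifs, although their fold enrichments, given below, were as high as 17.9.

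The 5 strongest gene-desert peaks of the whole list follow, with the same marking, because they show which sequences lay under the highest enrichment.
Serp2, chr14:77180993-77181093: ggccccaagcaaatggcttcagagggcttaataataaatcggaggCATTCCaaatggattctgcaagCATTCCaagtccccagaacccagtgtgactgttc
Pdgfc, chr3:81096447-81096547: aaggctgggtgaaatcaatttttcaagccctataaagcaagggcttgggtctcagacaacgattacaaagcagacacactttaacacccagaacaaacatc
Ppargc1a, chr5:51807683-51807783: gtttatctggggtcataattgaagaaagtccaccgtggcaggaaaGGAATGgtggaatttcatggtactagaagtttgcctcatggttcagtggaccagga
Ppp4r2 to Pdzrn3, chr6:100889189-100889289: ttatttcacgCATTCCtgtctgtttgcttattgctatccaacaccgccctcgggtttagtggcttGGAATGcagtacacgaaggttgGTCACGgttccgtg
Mycn to Ddx1, chr12:13063215-13063315: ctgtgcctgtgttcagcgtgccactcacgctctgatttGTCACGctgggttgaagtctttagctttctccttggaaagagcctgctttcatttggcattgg
The core was present under the peaks of the Ppp4r2 to Pdzrn3 and Mycn to Ddx1 stretches, 37 bp to the right and 12 bp to the left of the summit respectively. The Serp2 window held the Tead letters on the minus strand at 2 places, the Ppargc1a window held them once and the Ppp4r2 window at 2 places. The Pdgfc window held no match to any of the 8 motifs. A match is a description of letters and not a binding site.

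Gene deserts under the same rule made up 461.6 Mb, or 18.0% of the sequenced genome, and held 4.03 Pax7 peaks per Mb. The genome as a whole held 8.04 peaks per Mb. Density was 31.6 peaks per Mb within 1 kb of a TSS, 9.42 in gene bodies beyond 1 kb, 6.38 between genes at up to 10 kb from a TSS and 5.98 at 10 to 100 kb. Gene-desert DNA thus held the fewest peaks per Mb of these 5 territories, and density fell with distance. At 100 to 200 kb from a TSS lay 1153 peaks, or 4.96 per Mb, and beyond 200 kb lay 707, or 3.09 per Mb. All sequenced bases were counted, whereas the authors kept only reads that mapped uniquely. Repeat content was not examined, so its part in these densities was not tested.

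Among the autosomes, the density of gene-desert peaks ran from 2.21 per Mb on chromosome 6 to 5.90 per Mb on chromosome 8, with a median of 4.33. The X chromosome held 6 gene-desert peaks in 12.1 Mb, or 0.494 per Mb, and its density of all Pax7 peaks, 1.50 per Mb, was also low. The Y chromosome held none.

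The gene-desert peaks lay a median of 170 kb from the nearest TSS of any type (quartiles 130 and 246 kb, maximum 979 kb) and a median of 227 kb from the nearest protein-coding TSS. The nearest TSS belonged to a protein-coding gene for 976 peaks, or 52.5%, and to a small RNA gene for 586, or 31.5%. Another 157 were nearest to a pseudogene and 73 to a lincRNA. Only 59 peaks were more than 500 kb from every TSS, and 52 were more than 1 Mb from a protein-coding one.

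At the boundary of the definition, peaks on either side had mixed strengths. The 3 just inside lay 100.017 kb from Gm14032 with a fold enrichment of 12.6, 100.031 kb from Qrfpr with 5.76 and 100.084 kb from a 7SK gene with 5.76. The 3 just outside lay 99.819 kb from a SNORA17 gene with a fold enrichment of 4.54, 99.906 kb from Ccdc121 with 3.36 and 99.934 kb from Gm5528 with 7.70.

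Gene-desert peaks were about as strong as other Pax7 peaks. The fold enrichment, which is the pooled ChIP signal over the local background at the summit, had a median of 5.28 in gene deserts (quartiles 4.32 and 6.91, range 2.36 to 21.2) and of 5.21 in all other peaks. A fold of at least 5 was reached by 1073 gene-desert peaks, or 57.7% (55.4 to 59.9), against 54.9% of all peaks in the list. The share was 3.03 percentage points above that of all other peaks (95% Newcombe interval 0.659 to 5.37), 4.30 points above that of intergenic peaks up to 10 kb from a TSS (0.994 to 7.60) and 8.28 points above that of peaks within 1 kb of a TSS (5.46 to 11.1). The intervals of the differences from intergenic peaks at 10 to 100 kb (0.385 points, -2.29 to 3.04), introns (2.31 points, -0.179 to 4.77) and exons (0.245 points, -4.49 to 5.06) included 0. The interval of the difference from all other peaks also included 0 when only intergenic peaks were compared or when the distance was set at 200 kb.

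High enrichment was about as frequent in gene deserts as elsewhere. A fold of at least 10 was reached by 129 gene-desert peaks, or 6.94%, against 6.99% of all peaks, and the difference from all other peaks was -0.0628 points (-1.19 to 1.23). Among the 100 strongest Pax7 peaks 10 were in gene deserts, and among the 1000 strongest 95 were. Gene-desert peaks had a median width of 262 bp (range 174 to 1004), against 251 bp for the others, and a median −log10 q of 12.3, against 11.6. Within deserts the share with a fold of at least 5 was 58.3% (55.4 to 61.1) at 100 to 200 kb from a TSS, 57.1% (53.3 to 60.9) at 200 to 500 kb and 52.5% (40.0 to 64.7) at 500 to 1000 kb, and these intervals overlapped.

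**Figure D1:**
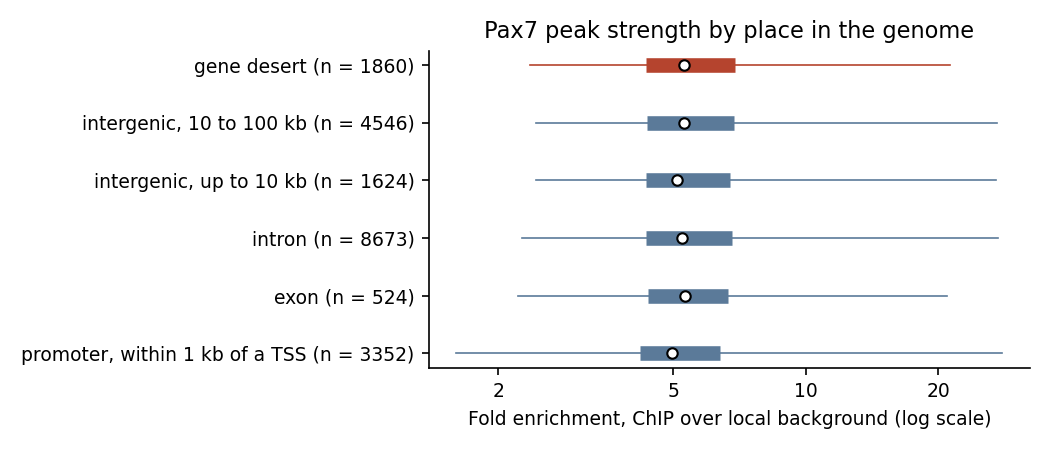
Fold enrichment of Pax7 peaks (log scale) by place in the genome; thin lines are the range, thick bars the middle quartiles and circles the median of each class, with the number of peaks in brackets. The gene-desert median of 5.28 sits beside that of intergenic peaks at 10 to 100 kb (5.28) and above that of peaks within 1 kb of a TSS (4.96), and the ranges overlap widely.

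The peaks were spread over 709 gene-free stretches, where a stretch is the DNA between neighbouring annotated genes of any type. In 304 stretches a gene-desert peak was alone, which accounts for 16.3% of the peaks. At the other end, 111 stretches with 5 or more held 786 peaks, or 42.3%, and 16 stretches with 10 or more held 177. Of 1728 gene-free stretches longer than 200 kb, 1070 had no gene-desert peak.

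**Figure D2:**
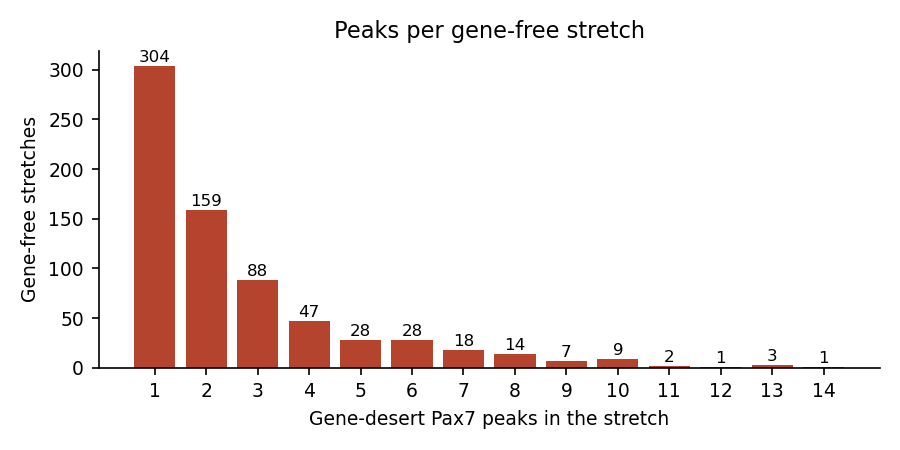
Number of gene-free stretches by the number of gene-desert Pax7 peaks they hold, among stretches with at least 1. Single peaks were the most frequent case (304 stretches), and 1 stretch held 14.

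The stretch with most gene-desert peaks, 14 in 1236 kb of chromosome 8, lay between Gm8730 and Cdh5, which encodes VE-cadherin, an adhesion protein of endothelial cells. Both flanking genes turn their TSS side to the stretch. Its fold enrichments, in order from Gm8730, were 5.23, 4.01, 3.70, 8.64, 6.63, 5.28, 4.84, 6.24, 4.19, 3.00, 9.88, 3.93, 17.4 and 5.41. The strongest peak thus stood 351 kb from the Cdh5 TSS with a weaker one 0.462 kb away, and 2 of the 14 summit windows held the paired-box core.

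Genes of ephrin signalling, which guides cell contact and migration, flanked the next pair. A 979 kb stretch of chromosome 8 that ends at Efnb2, encoding the ligand ephrin-B2, held 13 peaks with folds of 3.16 to 8.00 (median 4.97), and a fold of 5 was reached by 6. The nearest protein-coding gene on its other side, Gm1840, lay 1998 kb beyond the stretch, with a SNORA17 gene at the edge. The 1508 kb between Slc4a3, an anion exchanger gene, and Epha4, encoding an ephrin receptor, also held 13, with folds of 3.57 to 8.96 (median 5.56). A fold of 5 was reached by 9 of these 13, and a run of 4 lay within 12.2 kb on the Epha4 side with folds of 5.23, 8.21, 5.56 and 6.80. None of the 13 summit windows held the core. Epha4 and Efnb2 both turn their 3′ side to the stretch.

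A 1533 kb stretch of chromosome 18 held 13 peaks with folds of 3.00 to 12.1 (median 4.66). Its nearest protein-coding genes were Gm5506, at one edge, and Dtwd2, 114 kb beyond the other. On chromosome 1, 1374 kb between Tmem182 and Gm9915 held 12 peaks, whose weakest had a fold of 2.64 and whose strongest, 634 kb from the Tmem182 TSS, had 17.9. A second peak of that stretch passed 10, at 10.8. The median of the 12 was 4.61. Both medians were below the 5.28 of all gene-desert peaks, so these stretches mixed a few strong peaks with many weaker ones.

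The stretches of chromosome 3 beside Tbl1xr1, a corepressor subunit gene, and of chromosome 1 beside Plxna2, a semaphorin receptor gene, held 11 peaks each. In the first, 1026 kb long, no peak passed 10 and the folds were 3.36 to 7.67 (median 5.60). In the second, 1110 kb long, the folds were 4.19 to 16.6 (median 6.06), 9 of the 11 reached 5, and the peaks at 16.6 and 12.3 passed 10. Neither of the Plxna2 peaks above 10 lay near the other, since they stood 270 and 993 kb from the left edge.

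Among the first 12 stretches, which were picked by their counts of peaks, the shortest was also the densest. A shorter stretch outside them, beside Six2, had 27.0 gene-desert peaks per Mb. The shortest of the 12 covered 403 kb of chromosome 12. Its nearest protein-coding genes were Dact1, which encodes a regulator of Wnt signalling, and Daam1, which encodes a formin acting in Wnt planar polarity. Dact1 lay 1.55 kb and Daam1 106 kb beyond its edges. The 10 peaks amounted to 24.8 per Mb of the whole stretch. That length includes DNA within 100 kb of a TSS, where the rule allows no gene-desert peak. This density therefore cannot be set beside the 4.03 per Mb of all gene-desert DNA. All 10 stood within 118 kb, with a median step of 11.5 kb, in a stretch whose outer parts the rule excludes. Their folds in order from Dact1 were 12.54, 6.08, 7.63, 2.88, 5.60, 6.08, 4.39, 4.44, 3.85 and 5.97. The strongest was therefore the one nearest Dact1, and none of the 10 windows held the core.

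The other 4 stretches among the first 12 held 10 peaks each. The 513 kb stretch that ends at Lmo4, a LIM-only cofactor gene, had folds of 3.72 to 10.2 (median 4.85). The 688 kb stretch whose nearest protein-coding genes were Myc and Gsdmc had folds of 3.57 to 8.63 (median 4.87), and Myc, a growth-promoting transcription factor gene, was 803 kb beyond its edge. The 745 kb stretch between Nav3 and E2f7, the latter a repressor of the E2F family, had folds of 3.72 to 9.45 (median 5.07). The fourth, 737 kb long, ended at Zfp703, a transcriptional corepressor gene, and Thap1 lay 77.5 kb beyond its other edge. In it a single peak at 19.9 stood 233 kb from the Zfp703 TSS while the other 9 were between 4.25 and 6.63. Since 9 stretches tied at 10 peaks and were ordered by length, the last places are arbitrary, and Psmd7 to Zfhx3, St3gal1 to Zfat, Gm17624 to Vstm2a and Celf4 to Pik3c3 had as many.

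**Figure D3:**
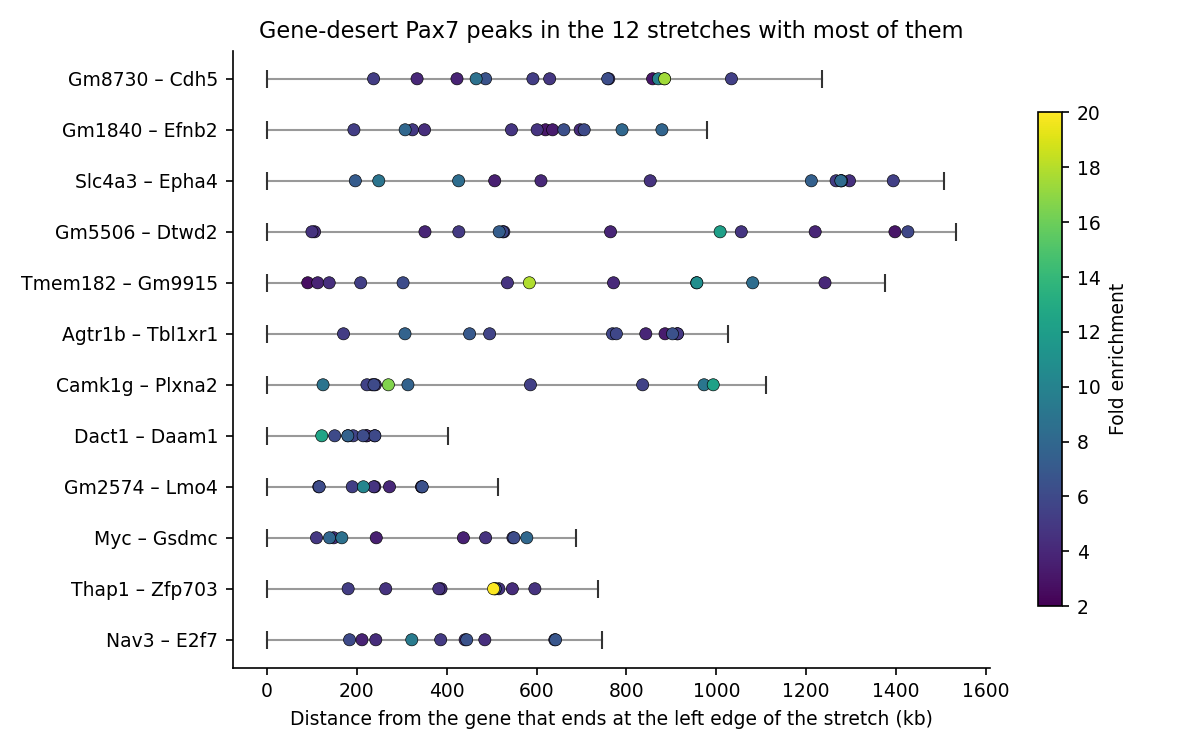
Positions of gene-desert Pax7 peaks in the 12 stretches with most of them, as distance in kb from the left edge of each stretch; ticks are its ends, colour is fold enrichment, and labels give the nearest protein-coding genes, which can lie beyond the ends. Most peaks are at low fold, with single strong ones at 17.4 (Cdh5), 17.9 (Tmem182), 16.6 (Plxna2) and 19.9 (Zfp703). The 10 peaks between Dact1 and Daam1 lie within 118 kb of a stretch whose outer parts the rule excludes.

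None of the 5 strongest gene-desert peaks was in these 12 stretches. The highest, at a fold of 21.2 with −log10 q of 141, ranked 23 among all Pax7 peaks and lay 224 kb from the TSS of Serp2 in a stretch with 8 gene-desert peaks. Next came a peak at 20.9, which stood 78.5 kb beyond the gene body of Pdgfc, a growth factor gene of the PDGF family, in a stretch with 3. A peak at 20.7 lay 137 kb from the TSS of Ppargc1a, encoding the PGC-1α coactivator of mitochondrial biogenesis, in a stretch with 4. The other two were at 20.2 between Ppp4r2 and Pdzrn3, the latter encoding a ubiquitin ligase with a role in myoblast differentiation, and at 20.1 between Mycn and Ddx1, where it was the only gene-desert peak, 115 kb from Mycn, a growth-promoting transcription factor gene.

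The 3 peaks farthest from any TSS were all in the 1964 kb stretch of chromosome 18 that ends at Pik3c3, encoding a lipid kinase of autophagy. They lay 979, 956 and 955 kb from the nearest TSS, with folds of 4.54, 4.36 and 9.24. The last of these was stronger than 90.5% of all Pax7 peaks, and none of the 3 held a Pax motif.

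Another gene-desert peak lay within 12500 bp, the distance over which the study's methods joined enhancers, for 585 gene-desert peaks, or 31.5% (29.4 to 33.6). Of all other peaks, 40.4% had another peak outside the deserts that close. The shares were 8.82% and 8.49% within 1 kb, 18.8% and 24.2% within 5 kb, and 58.3% and 74.99% within 50 kb, and the median distance to the nearest peak of the same kind was 32.4 kb in deserts and 19.1 kb elsewhere. Gene-desert peaks were thus farther from peaks of their own kind beyond the closest range, in DNA with fewer peaks per Mb. Peaks of the other kind were left out of both measures. The part of this split, or of that density, in the difference was not tested.

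When gene-desert peaks were joined by steps of up to 12500 bp, 51 runs had 3 or more peaks and held 165 peaks, and 10 runs had 4 or more. Runs of other peaks are not given, and those peaks more often had a neighbour of their kind within that distance (40.4% against 31.5%). The 2 longest gene-desert runs had 5 peaks. The first spanned 14.4 kb, beginning 116 kb upstream of Six2, a homeobox gene expressed in developing mesenchyme, and its folds were 10.96, 5.44, 4.32, 4.56 and 4.61. The second spanned 17.8 kb, with its nearest peak 100.6 kb from the TSS of Trib2, a pseudokinase gene, and had folds of 4.29, 6.17, 3.41, 6.61 and 4.05. In both runs most members were weak, and the strongest stood at one end only in the Six2 run.

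Some 4-peak runs were built around a strong peak. Beside Zfp703, 11.95 kb held folds of 19.9, 6.28, 6.63 and 4.72. Beside Serp2, 16.8 kb held 4.80, 3.31, 21.2 and 5.02, and beside Tmem135, 19.5 kb held 8.94, 18.7, 3.17 and 10.1. In each of these runs the highest fold was at least as great as 18.7 while the weakest was under 5, so neighbours within a run differed widely in strength.

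To ask which kinds of genes border these stretches, 4 lists of genes were counted as nearest protein-coding flanks. Of 22225 protein-coding genes, 1125, or 5.06%, flanked a stretch with at least 1 gene-desert peak, and 208, or 0.936%, flanked one with 5 or more. The counts for the lists were 12 of 50 somite and muscle regulators (24.0%), 39 of 103 other developmental transcription factors (37.9%), 15 of 75 signalling ligands and receptors (20.0%) and 41 of 66 adhesion and axon guidance genes (62.1%). With 5 or more peaks they were 4, 8, 2 and 9.

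Listed genes also border gene-poor DNA more often, whether or not Pax7 is bound there. Protein-coding genes flanking a gene-free stretch longer than 200 kb numbered 2114, of which 1048, or 49.6%, flanked at least 1 gene-desert peak and 208, or 9.84%, flanked 5 or more. By this measure the shares with at least 1 were 12 of 17 (70.6%), 39 of 58 (67.2%), 15 of 25 (60.0%) and 41 of 57 (71.9%), in the same order of lists. The shares with 5 or more were 23.5%, 13.8%, 8.00% and 15.8%. This second background was chosen after the first counts were seen. No test was made of the gaps between the lists and either background.

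The somite and muscle regulators with 5 or more peaks were Six2, Eya4, Dmrt2 and Zeb2. Six2 flanked 8 peaks in 296 kb with folds of 10.96, 5.44, 4.32, 4.56, 4.61, 4.32, 13.2 and 5.44, of which 7 had the Six2 TSS as the nearest one. Eya4, encoding a transcriptional coactivator of the Eya family, flanked 6 peaks in 435 kb with folds of 6.72, 8.54, 4.36, 7.26, 6.93 and 18.6. The peaks at 6.72 and 8.54 had the Eya4 TSS as the nearest one, and the others a Snora33 TSS. Dmrt2, a transcription factor gene of the somite, flanked 6 in 581 kb with folds of 5.76, 10.2, 9.77, 8.36, 5.66 and 3.97. Only the peak at 5.76 had the Dmrt2 TSS as the nearest one, and the others a U4 TSS. The medians for Eya4 and Dmrt2, 7.09 and 7.06, were above the 5.28 of all gene-desert peaks, and that for Six2, 5.02, was below it. Six2 and Eya4 turn their TSS side to the stretch and Dmrt2 its 3′ side. Zeb2, a zinc finger repressor gene, flanked 6 peaks only as the nearest protein-coding gene, 3340 kb beyond the edge.

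Summit sequences follow for the strongest peaks in the stretches flanked by Six2, by Eya4 and, from the transcription factor list, by Zfp703. These examples were picked with their values already known. The Six2 and Zfp703 peaks had the TSS of that gene as the nearest one, at 170 and 233 kb. The Eya4 peak lay toward the other end of its stretch, where Rps12 is the coding flank. Its nearest TSS was that of Snora33, at 109 kb. Capitals mark the same 8 motifs.
Six2, chr17:86257569-86257669: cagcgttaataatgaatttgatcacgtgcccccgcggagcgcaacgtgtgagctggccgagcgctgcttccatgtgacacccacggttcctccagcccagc
Eya4, chr10:23395889-23395989: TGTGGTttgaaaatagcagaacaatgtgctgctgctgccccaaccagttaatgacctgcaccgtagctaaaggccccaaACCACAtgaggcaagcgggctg
Zfp703, chr8:27854979-27855079: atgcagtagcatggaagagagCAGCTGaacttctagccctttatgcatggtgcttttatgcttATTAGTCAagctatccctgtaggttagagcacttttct
The Six2 window held none of the motifs. The Eya4 window held the Runx letters at 2 places, at its left end and 29 bp to the right of the summit. The Zfp703 window held ATTAGTCA 13 bp to the right of the summit and an E-box 29 bp to the left.

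Among the other developmental transcription factors, those named here are Zfhx3 and Zfp703, which flanked 10 peaks each, Runx1, which flanked 6, and Tshz1, Id2, Nkx6-1 and Maf, which flanked 5 each. Runx1 encodes a Runt-domain factor, and 1 of its 6 peaks reached a fold of 5, at 7.91. Id2 encodes an inhibitor of bHLH factors, and 4 of its 5 peaks reached 5 although the gene was 592 kb beyond the stretch. The strongest peak in the Zfhx3 stretch had a fold of 14.4, while the median of the 10 was 4.31.

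From the signalling list, Tgfb2, encoding a TGF-β ligand, flanked 8 peaks with folds of 3.70 to 7.71, of which 6 reached 5. Tgfbr2, encoding the type II receptor for such ligands, flanked 6 with folds of 3.16 to 7.25 from 50.0 kb beyond the edge. Adhesion and guidance genes with 5 or more peaks were Epha4 and Efnb2, described above, together with Cdh6, Cdh9, Pcdh18, Robo2, Unc5d, Flrt2 and Fat1. Cdh6 and Cdh9, 2 cadherin genes, flanked the same 1561 kb stretch of 7 peaks, where 1 reached a fold of 5, and Cdh9 lay 2043 kb beyond its edge. Pcdh18, a protocadherin gene, flanked 9 peaks with folds up to 13.8. The peak at 13.8 was nearest to the TSS of Slc7a11, the protein-coding gene on the other side, at 105 kb. Flrt2, encoding a membrane protein of cell adhesion and guidance, flanked 8 peaks with folds up to 13.0 from 606 kb beyond the edge. Robo2 lay 196 kb and Epha4 222 kb beyond the edges of theirs.

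Gene-desert summits carried the letters that the paired domain recognises, though less often than other summits. The core GTCACG was found in 133 gene-desert windows reaching 50 bp to either side of the summit, or 7.15% (6.07 to 8.41), and in 15 flank windows, which are as wide and lie 500 bp to the right, or 0.806% (0.489 to 1.33). The adjusted p was 4.7e-25 (McNemar's exact test, two-sided, Benjamini-Hochberg over 9 motifs, here and below), with peaks rather than samples as the units. Over all 20579 peaks the shares were 11.1% at the summit and 1.31% in the flank. The gene-desert share was 4.38 points lower than that of all other peaks, 11.5% (interval of the difference -5.56 to -3.04).

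The share of the core varied between classes of peaks. Peaks within 1 kb of a TSS held the core in 18.6% of windows, and the gene-desert share differed from that by -11.4 points (-13.2 to -9.64). Intergenic peaks at 10 to 100 kb held it in 8.58%, and the gene-desert share differed from that by -1.43 points with an interval of -2.81 to 0.0544, which included 0. The core contains CpG, and base composition also differed between the classes. The median GC content of the summit window was 43.6% in gene deserts, 46.5% in all other peaks and 55.4% within 1 kb of a TSS, and 3 or more CpG were present in 16.6%, 34.9% and 77.1% of windows. The control letters TCAGCG, the same bases in another order, were found in 1.83% of gene-desert summits, 2.67% of other summits and 5.07% within 1 kb of a TSS. The gene-desert share of the control was thus also lower, by -0.843 points from other summits (-1.41 to -0.0941). From peaks within 1 kb of a TSS it differed by -3.24 points (-4.19 to -2.25). Neither interval included 0. Intronic peaks and intergenic peaks at 10 to 100 kb had the same median GC content, 44.6%, with 3 or more CpG in 24.5% and 24.4% of windows, and held the core in 10.2% and 8.58%. The part of base composition in the difference in core share was not tested.

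The core matches stood close to the summit. Of 133 windows with a core 128 had 1 match and 5 had 2, the median distance from the summit was 21.5 bp, and 58.0% of matches were within 25 bp. In bins of 25 bp the number of matches reached 25.8 per 1000 gene-desert peaks at the summit and 47.7 per 1000 other peaks. The control letters reached 5.91 and 7.43 per 1000 in the same bin.

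**Figure D4:**
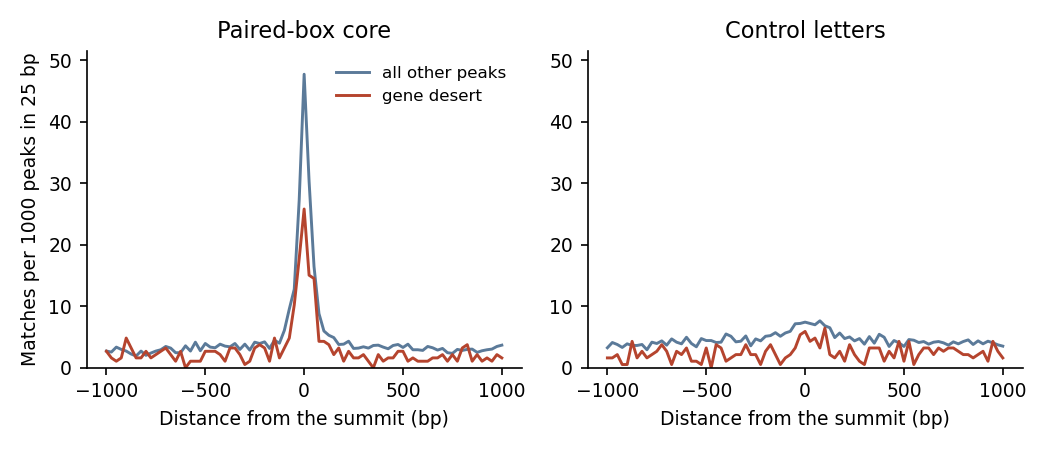
Matches to the paired-box core (left) and to the control letters (right) in 25 bp bins against the distance from the summit in bp, per 1000 peaks, for gene-desert peaks and all other peaks. The core rises at the summit to 25.8 per 1000 in gene deserts and 47.7 per 1000 elsewhere, and the control letters reach 5.91 and 7.43 there.

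The core was more frequent under strong gene-desert peaks. It was present in 6.48% of windows at folds under 5 (51 of 787), 6.99% at 5 to 10 (66 of 944) and 12.4% at 10 or more (16 of 129), and the last share exceeded the first by 5.92 points (0.910 to 12.9). In all other peaks the shares were 9.30%, 12.4% and 20.2%. By distance, 7.89% of windows held it at 100 to 200 kb from a TSS (6.47 to 9.59), 6.33% at 200 to 500 kb (4.70 to 8.47) and 1 of 59 beyond 500 kb, or 1.69% (0.30 to 9.0), with overlapping intervals. Shortening the core to TCACG, a choice made after the summit sequences were seen, gave 14.4% of gene-desert summits (12.8 to 16.0), 3.82% of their flanks and 19.6% of other summits, the same order at higher levels.

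The motif that joins a homeodomain half-site to the start of the paired-box core, ATTAGTCA, had similar shares at gene-desert and other summits. It was found in 2.80% of gene-desert summits against 0.430% of flanks (adjusted p = 2.3e-09, McNemar's exact test) and in 2.95% of other summits, a difference of -0.159 points (-0.863 to 0.725). Over all peaks it was in 2.94% of summits and 0.350% of flanks. Homeodomain dimers with a spacer of 3 bases were found in 1.56% of gene-desert summits and 0.645% of flanks (adjusted p = 0.015, McNemar's exact test), and the share exceeded that of other summits, 0.935%, by 0.624 points (0.130 to 1.31). Against intergenic peaks at 10 to 100 kb, with 1.25%, the difference was 0.305 points with an interval that included 0 (-0.292 to 1.03). With a spacer of 2 bases the shares were 0.753% and 0.484% (adjusted p = 0.40, McNemar's exact test). Over all peaks the dimers were in 0.991% of summits and 0.306% of flanks with 3 bases and in 0.831% and 0.292% with 2. At least 1 of the 4 Pax motifs was present in 221 gene-desert summits, or 11.9%, in 43 flanks and in 15.7% of other summits, so that 1639 gene-desert summits, or 88.1%, held none in these exact letters. In 4 windows matches of different Pax motifs overlapped.

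Letters bound by other factors were also found at gene-desert summits. The E-box CAGCTG, which bHLH factors such as MyoD bind, was found in 298 summit windows, or 16.0% (14.4 to 17.8), and in 72 flanks, or 3.87% (adjusted p = 6.0e-36, McNemar's exact test). Its share at other summits was 15.7%, a difference of 0.353 points (-1.33 to 2.16), and over all peaks it was in 15.7% of summits and 4.59% of flanks. The gene-desert share of E-boxes was 15.6% at folds under 5, 16.2% at 5 to 10 and 17.1% at 10 or more, and the last minus the first was 1.43 points (-4.72 to 9.21).

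Motifs of 3 further families were also more frequent at the summit than in the flank of gene-desert peaks. Tead letters, bound by effectors of Hippo signalling, were in 11.7% and 5.00% of windows (adjusted p = 4.6e-13, McNemar's exact test), and over all peaks in 11.0% and 5.18%. AP-1 factors are dimers of Jun and Fos proteins. The letters TGANTCA, which allow any base in the middle, were in 7.26% and 3.92% (adjusted p = 2.5e-05, McNemar's exact test), and over all peaks in 6.82% and 3.35%. Runx letters were in 10.8% and 6.94% (adjusted p = 7.6e-05, McNemar's exact test), and over all peaks in 9.73% and 7.25%. For each of the 3 families the interval of the difference between gene-desert and other summits included 0. The control letters were in 1.83% of gene-desert summits and 1.13% of flanks (adjusted p = 0.096, McNemar's exact test), and over all peaks in 2.59% and 1.52%.

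**Figure D5:**
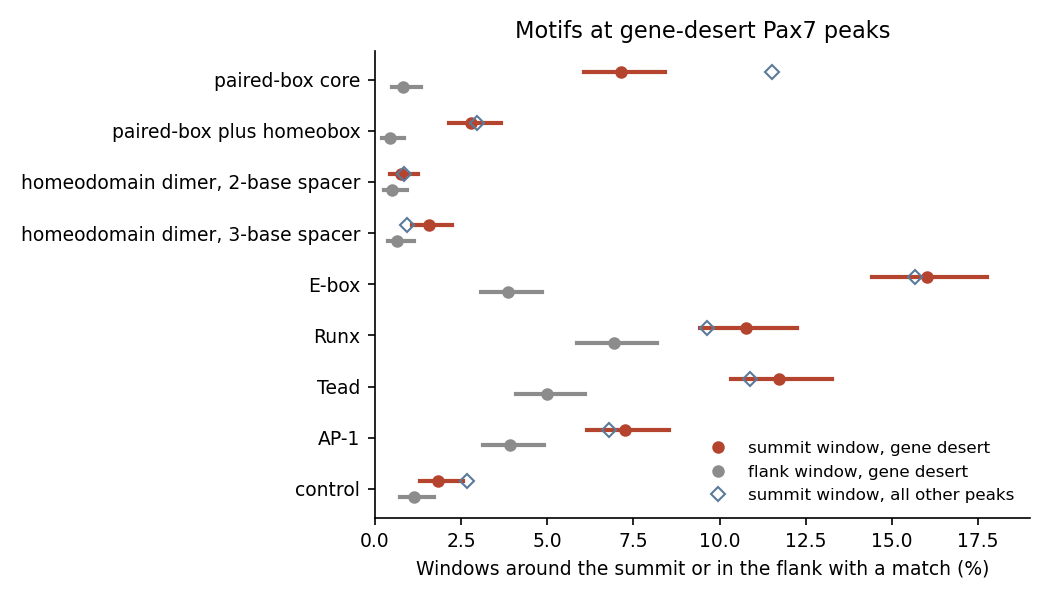
Share of windows (%, 50 bp to either side) with a match to each motif, at the summit and 500 bp to the right of gene-desert Pax7 peaks, with 95% Wilson intervals, and at the summit of all other peaks (diamonds). The core share is lower at gene-desert summits (7.15%) than at all other summits (11.5%), whereas E-box shares (16.0% and 15.7%) lie together. Intergenic peaks at 10 to 100 kb from a TSS, not drawn apart, held the core in 8.58%.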

How the data were processed

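Pax7 was measured by ChIP-seq in iPax7 progenitors, in 2 ChIP and 2 input libraries that the authors aligned to mm9 (NCBIM37) and merged before peaks were called with MACS2, with 0.01 as the limit on q. The deposited list holds, for each peak, a fold enrichment (a ratio made by the authors from merged ChIP reads over local background), a −log10 q-value and −log10 p-value, a score not used here, and the summit position. Columns of single samples that could not be tied to a sample numbered 0, and depth per library is not in the list.

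Summits were placed on NCBIM37 and GENCODE gene models. Stretches free of genes were ranked by gene-desert peaks, ties by shorter length. Both strands were scanned for motifs up to 50 bp from each summit and in flanks centred 500 bp to the right, and compared by McNemar's exact test with Benjamini-Hochberg adjustment over 9 motifs. Shares have 95% Wilson and differences Newcombe intervals, which cover counting error only. Genes named were flanks of the 12 stretches with most peaks, of the 5 strongest, 3 farthest and 3 boundary peaks on either side, and listed genes flanking 5 or more peaks. An entry among the listed genes is not reported here. A few further runs (beside Trib2 and Tmem135) and the stretches tied at 10 peaks were named after their values were seen. The members and gene lists were chosen with earlier results of these data known. Alternatives were the distance (50 and 200 kb), protein-coding genes only, a fold of at least 5, peaks within 500 bp merged, and other motif windows. Scripts were tested on simulated data and used Python 3.11.15 with numpy 2.4.6, pandas 2.3.3, scipy 1.17.1, statsmodels 0.14.6 and matplotlib 3.10.9.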

Additional observations from a re-analysis of the deposited data

How the results depend on the processing

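The number of gene-desert peaks followed the definition: 3373 lay more than 50 kb from a TSS, 707 more than 200 kb, 3253 when only protein-coding genes counted, and 1073 at a fold of at least 5. The excess of peaks with a fold of at least 5 over all other peaks, 3.03 points, was 1.85 at 200 kb (-1.90 to 5.52) and 1.42 against other intergenic peaks (-1.16 to 3.97), both with 0 inside the interval. The share with another gene-desert peak nearby, 31.5% within 12500 bp, was 18.8% within 5 kb, 58.3% within 50 kb and 26.2% after peaks within 500 bp were merged. The stretch with most gene-desert peaks held 23 when only protein-coding genes bounded stretches (a tie of Myc to Gsdmc and Zeb2 to Acvr2a) and 9 at a fold of at least 5, with Camk1g to Plxna2 first. Of the first 12 stretches, 5 were shared with the first 12 at a fold of at least 5 and 9 with those after merging. With only protein-coding genes as bounds, 0 of the first 12 were shared. Myc to Gsdmc was named in both rankings, but its ends differed. The core's excess over the flank and its lower share than other summits kept direction and side of the threshold under every alternative run. The dimer with 3 bases and Runx lost the threshold in windows of 25 bp to either side (adjusted p = 0.37 and 0.080, McNemar's exact test) and beyond 200 kb (0.22 and 0.42). The control letters passed it in windows of 100 bp to either side (adjusted p = 0.0082, McNemar's exact test) and against the left flank (0.0062), so letters chosen as a control were not wholly flat around the summit. Of 80 values under alternatives 63 kept direction and side of the threshold, or moved by less than their interval. The cause of each change was not tested, and a larger distance also leaves fewer peaks.

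No paired analysis was possible because the replicates were merged before peaks were called, and no replicate was left out for the same reason. Depth per library is not in the list, although the study reported mapped reads for each library, and it was not used here. A stretch without peaks says only that none passed the q-value cut-off.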
